A study of Mus musculus with 100 samples.

Results

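The loci of 10 genes of osteoclast fusion and resorption were examined: Dcstamp, Ocstamp, Atp6v0d2, Car2, Acp5, Ctsk, Mmp9, Itgb3, Oscar and Calcr. In each of 15 tables of chromatin immunoprecipitation followed by sequencing (ChIP-seq), every region whose nearest annotated gene was one of these 10 was taken, out of 18524 genes named in the tables. The tables held 606 such regions out of 610301, and 53 of the 20143 p300 peaks of the osteoclast experiment were among them. The authors assigned each region to the gene with the closest transcription start site (TSS), which need not be the gene it acts on.

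The cells came from adult C57BL/6 mice. For osteoclast differentiation, bone marrow cells labelled wild type were grown in M-CSF (Day0) and then for 4 days in M-CSF and RANKL (Day4), and the acetyltransferase p300 and the kinase ERK1 were profiled at both times. The descriptions of 3 of the 4 ERK1 libraries also carry the tag NCoRWT, which that of Day4 replicate 2 lacks. Bone marrow-derived macrophages (BMDMs) were given KLA for 6 h, or vehicle (Veh), Kdo2 lipid A being a TLR4 ligand. The labels describe the p300 Veh libraries as KLA0h, so this control is not labelled as 6 h of vehicle. In wild type BMDMs the corepressor NCoR, its histone deacetylase HDAC3, the coactivator PGC1β, p300, ERK1, PU.1, Fosl2 of the AP-1 family and p65 of NFκB were profiled. Some NCoR and PGC1β libraries came from cells given an ERK inhibitor (ERKi) and then KLA, and the PGC1β controls received DMSO. Per the methods, BMDMs were held in low serum before KLA, and inhibitors were added when this starvation began. Acetylation of histone H3 lysine 27 (H3K27ac), a mark of active regulatory regions, was profiled in NCoR flox/flox BMDMs (called WT there) and NCoR flox/flox, LysMCre BMDMs (NKO), in PGC1b flox/flox BMDMs with or without LysMCre, and in wild type BMDMs given DMSO or the HDAC3 inhibitor RGFP966. LysMCre deletes in cells of the myeloid lineage, the controls of both knockouts carried the floxed alleles, and H3K27ac does not itself measure whether the deletion took place. Every group had 2 libraries. The methods call the ChIP replicates biological, but no label ties a library to its own culture or mouse, and the p-values measure only the spread between the libraries.

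Osteoclasts are multinucleated cells that form when precursors of the macrophage lineage, instructed by M-CSF and RANKL, fuse with each other. They attach to bone, seal off a compartment, acidify it through a proton pump fed by carbonic anhydrase, and secrete enzymes that digest the exposed collagen. The genes below encode proteins of fusion, acid secretion, matrix digestion and attachment, and several are known targets of NFATc1, the master transcription factor of the lineage, together with AP-1, PU.1 and MITF.

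Libraries held 4.30 to 21.5 M tags (M for mega), and the 8 libraries of the osteoclast experiment held 4.70 to 11.6 M. Values are tags per 10 M tags of the library. The share of all p300 tags that lay inside peaks was 3.08 to 3.16% at Day0 and 9.53 to 9.61% at Day4, and for ERK1 it was 2.79 to 2.98% at Day0 and 4.50 to 6.46% at Day4. Regions within 2 kb of the TSS of 5 of 5 macrophage genes (Csf1r, Adgre1, Itgam, Cd68 and Lyz2) carried p300 at both times, summing to 329 and 413 tags per 10 M at Day0 and 416 and 462 at Day4. None of the 5 stromal, 3 B cell and 2 T cell genes examined had such a p300 region, and of the 3 neutrophil genes S100a8 had 1, with 21.98 and 14.9 at Day0 and 34.2 and 28.4 at Day4. More p300 per cell and a larger share of cells carrying p300 cannot be told apart in these data.

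The sequences of 6 p300 peaks that rose from Day0 to Day4 under both scalings described below are shown first, because the changes at these loci were read over such stretches. They are from the plus strand of mm10 (RefSeq GRCm38.p6), with starts and ends as listed in the tables and taken as inclusive, and 8 of the 44 member peaks called higher were not considered for printing because they overlap an exon. Capitals mark matches on either strand to 5 motifs, with N for any base. They include the AP-1 site TGANTCA, the pattern TCANGTG (called M-box here), the PU.1 core GAGGAA and the NFAT core TGGAAA. The last is a κB site made of GGGA and TTCC separated by 2 bases. The Calcr peak (chr6:3752318-3752576) lies in an intron and the Mmp9 peak (chr2:164933554-164933792) and Dcstamp peak (chr15:39737547-39737765) are intergenic. The Atp6v0d2 peak (chr4:19918978-19919190) and the Itgb3 peak (chr11:104638957-104639194) lie in introns, and the Ctsk peak (chr3:95497291-95497492) lies at the end of a neighbouring transcript. The number after each gene is the distance of the peak from the TSS in bp, positive in the direction of transcription.
Calcr +11176: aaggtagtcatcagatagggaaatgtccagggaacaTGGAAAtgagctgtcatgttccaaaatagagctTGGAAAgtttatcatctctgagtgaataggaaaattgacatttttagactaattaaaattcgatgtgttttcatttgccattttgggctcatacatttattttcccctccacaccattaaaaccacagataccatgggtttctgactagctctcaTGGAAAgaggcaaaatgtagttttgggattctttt
Mmp9 -14546: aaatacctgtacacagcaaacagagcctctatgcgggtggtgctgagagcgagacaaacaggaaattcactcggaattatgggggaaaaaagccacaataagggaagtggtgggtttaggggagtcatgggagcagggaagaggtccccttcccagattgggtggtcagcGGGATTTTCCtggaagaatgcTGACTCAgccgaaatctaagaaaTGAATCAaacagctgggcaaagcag
Dcstamp -8274: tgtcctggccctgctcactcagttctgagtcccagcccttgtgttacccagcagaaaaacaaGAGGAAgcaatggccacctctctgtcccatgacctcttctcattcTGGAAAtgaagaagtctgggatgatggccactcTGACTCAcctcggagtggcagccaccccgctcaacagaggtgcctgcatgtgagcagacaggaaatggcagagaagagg
Atp6v0d2 +3482: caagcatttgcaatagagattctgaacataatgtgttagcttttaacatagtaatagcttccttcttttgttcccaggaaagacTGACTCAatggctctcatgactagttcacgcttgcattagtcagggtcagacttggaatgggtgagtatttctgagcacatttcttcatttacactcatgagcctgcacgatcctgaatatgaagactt
Ctsk -1819: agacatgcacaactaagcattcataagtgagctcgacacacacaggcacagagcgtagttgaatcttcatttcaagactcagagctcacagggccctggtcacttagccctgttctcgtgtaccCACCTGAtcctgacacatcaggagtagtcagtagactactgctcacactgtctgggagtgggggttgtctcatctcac
Itgb3 +31075: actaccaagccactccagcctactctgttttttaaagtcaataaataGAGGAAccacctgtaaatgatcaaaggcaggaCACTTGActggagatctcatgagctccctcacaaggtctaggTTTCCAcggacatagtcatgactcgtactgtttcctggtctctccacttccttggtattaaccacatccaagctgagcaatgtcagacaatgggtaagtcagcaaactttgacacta

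p300 occupancy was higher at Day4 than at Day0 at 44 of the 53 peaks of the 10 genes and lower at none (edgeR quasi-likelihood test with libraries scaled to their totals, where a call required more than 2-fold and an adjusted p below 0.05). Every gene had at least 1 such peak. By the same rule 62.5% of all 20143 p300 peaks were called, 12531 higher and 50 lower, and the median log2 fold change was 1.84 over all peaks and 2.48 over the members. When libraries were scaled by TMM, which sets the typical peak near no change, the median over all peaks was 0.22 and over the members 0.86, and 11 member peaks stayed called, all higher, against 12.6% of all peaks. A DESeq2 Wald test called 4. Without Day4 replicate 1 the count of member peaks called was 20, and without Day4 replicate 2 it was 22. Of the 53 member peaks, 50 belonged to the reproducible peak set of Day4 and not to that of Day0 (94.3%, against 88.4% of all peaks), so most of the list was drawn up at Day4. Within the peaks found at Day4 only, 66.4% of all peaks and 43 of the 50 member peaks were called. In the Day0 set 32.6% of all peaks and 1 of 3 member peaks were called.

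**Figure D1:**
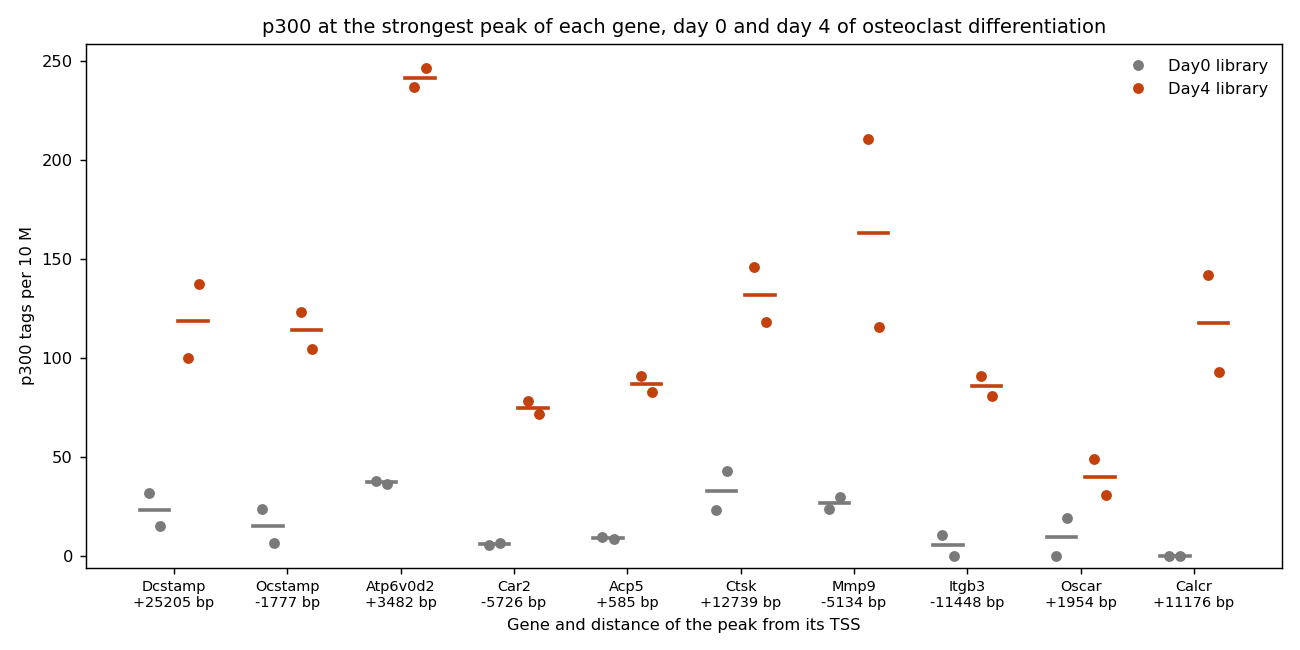
p300 tags per 10 M at the strongest p300 peak of each of the 10 genes (highest mean over the 4 libraries) in the 2 Day0 and 2 Day4 libraries of the osteoclast experiment. Points are libraries and bars are group means. At all 10 genes both Day4 libraries lie above both Day0 libraries, and Atp6v0d2 reaches the highest Day4 mean (241).

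Dcstamp encodes DC-STAMP, a membrane protein without which osteoclast precursors do not fuse. At its intergenic peak at -8274 bp p300 rose from 4.40 and 8.52 tags per 10 M in the 2 Day0 libraries to 132 and 104 in the 2 Day4 libraries (log2 fold change 4.33 ± 0.51 SE, edgeR adjusted p = 0.000123). A second upstream peak, at -14021 bp, was almost empty at Day0, with 0.879 and 2.13, and held 53.8 and 47.6 at Day4 (5.18 ± 0.83, adjusted p = 0.000555). Both stayed called with TMM. The strongest Dcstamp peak, at +25205 bp in an intron of a neighbouring transcript, was already occupied at Day0 with 31.6 and 14.9 and reached 99.7 and 137 (2.23 ± 0.42, adjusted p = 0.00110), a change that TMM reduced to 0.61 and did not call. A peak at +21285 bp also rose (2.97 ± 0.79, adjusted p = 0.00674), and the fifth was not called. The Day0 and Day4 libraries did not overlap at any of the 4 called peaks.

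Ocstamp encodes OC-STAMP, a relative of DC-STAMP that is also needed for fusion. Of its 3 peaks, 2 rose. At -5154 bp, in the 3′ UTR of a neighbouring gene, p300 went from 2.64 and 0 to 90.0 and 80.5 tags per 10 M (5.44 ± 0.70 on the log2 scale, edgeR adjusted p = 0.000178), which also passed with TMM and with DESeq2. At -1777 bp the Day0 libraries differed, with 23.7 and 6.39, and both lay below the Day4 libraries with 123 and 104 (2.71 ± 0.48, adjusted p = 0.000806).

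Atp6v0d2 encodes the d2 subunit of the membrane sector of the vacuolar proton pump, and it serves both fusion and acid secretion. Its intronic peak at +3482 bp had the highest Day4 level of all member peaks, rising from 37.8 and 36.2 to 237 and 246 tags per 10 M (2.69 ± 0.33, edgeR adjusted p = 0.000145), and stayed called with TMM (1.08). At the promoter (-38 bp) p300 rose from 19.3 and 21.3 to 123 and 99.8 (2.47 ± 0.40, adjusted p = 0.000610). The other called peaks changed less. At +24330, +27065 and -4615 bp the log2 fold changes were 1.02, 1.04 and 1.51 by library totals and -0.59, -0.59 and -0.11 with TMM. By library totals 5 of the 8 Atp6v0d2 peaks were called higher, whereas with TMM 1 was called and 6 of the 8 had a negative sign. At +27798 bp the 2 Day0 libraries differed widely, with 74 and 0 tags, and this peak was not called.

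Car2 encodes carbonic anhydrase II, which supplies the protons for acid secretion. Both of its peaks rose. At -5726 bp, in intergenic sequence, p300 went from 5.27 and 6.39 to 78.2 and 71.5 tags per 10 M (3.69 ± 0.56 on the log2 scale, edgeR adjusted p = 0.000418). At +31171 bp it went from 5.27 and 6.39 to 31.3 and 35.2 (2.52 ± 0.70, adjusted p = 0.00841). The first stayed called with TMM and the second did not.

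The matrix enzymes Acp5, Ctsk and Mmp9 had 18 called peaks of 21. Acp5 encodes tartrate-resistant acid phosphatase, the classical stain for osteoclasts, and all 5 of its peaks rose. The strongest, at +585 bp in the promoter region, went from 9.67 and 8.52 to 90.9 and 82.8 tags per 10 M (3.21 ± 0.49, edgeR adjusted p = 0.000402). The peak at -27 bp, on the TSS itself, went from 3.52 and 6.39 to 39.1 and 49.9 (3.26 ± 0.71, adjusted p = 0.00238). The peaks further into the locus also rose, at +4787 bp from 9.67 and 10.6 to 48.9 and 54.4 (2.35 ± 0.57, adjusted p = 0.00439) and at +6581 bp from 6.15 and 0 to 39.1 and 35.2 (3.15 ± 0.82, adjusted p = 0.00605). In the exonic peak at +2665 bp both Day0 libraries held 0 tags, and the Day4 libraries held 19 and 15, which is at least 9.54-fold higher when 3 tags over the Day0 group are taken as the floor (counting error only). None of the 5 Acp5 peaks passed with TMM, where their median log2 fold change was 1.60. The libraries of the groups did not overlap at any of them.

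Ctsk encodes cathepsin K, the main collagen-degrading protease of osteoclasts, and 7 of its 10 peaks rose. The largest level was at +12739 bp in intergenic sequence, where p300 went from 22.9 and 42.6 to 146 and 118 tags per 10 M (2.10 ± 0.40, edgeR adjusted p = 0.00112). At -1819 bp it went from 16.7 and 10.6 to 122 and 135 (3.13 ± 0.42, adjusted p = 0.000206), and this was the Ctsk peak that TMM also called. The promoter peak at -301 bp changed least among the called ones, from 18.5 and 19.2 to 47.9 and 48.8 (1.36 ± 0.52, adjusted p = 0.0355), and its sign turned with TMM (-0.25). The other called Ctsk peaks, at -1339, +5720, +6531 and +11181 bp, had log2 fold changes of 2.15, 1.66, 3.83 and 1.98.

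Mmp9 encodes matrix metalloproteinase 9, a gelatinase, and all 6 of its peaks rose, 3 of them also with TMM. At -14546 bp p300 was nearly absent at Day0, with 1.76 and 0, and reached 97.8 and 87.3 at Day4 (6.09 ± 0.71 on the log2 scale, edgeR adjusted p = 0.000113). At -6990 bp it went from 5.27 and 12.8 to 132 and 108 (3.92 ± 0.50, adjusted p = 0.000174). In the promoter at -539 bp it went from 4.40 and 12.8 to 97.8 and 82.8 (3.61 ± 0.55, adjusted p = 0.000428). These 3 peaks had low levels at Day0. The strongest peak, at -5134 bp, started higher, with 23.7 and 29.8, and its Day4 libraries differed, with 210.3 and 116 (2.64 ± 0.41, adjusted p = 0.000454). The peaks at -12155 and -14 bp rose by 2.48 and 2.40 on the log2 scale.

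Itgb3 encodes integrin β3, a subunit of the vitronectin receptor through which osteoclasts hold on to bone. All 9 of its peaks rose by library totals. The intronic peak at +31075 bp, which TMM also called, went from 1.76 and 8.52 to 82.1 and 86.2 tags per 10 M (4.36 ± 0.64, edgeR adjusted p = 0.000346). The strongest peak, at -11448 bp, went from 10.5 and 0 to 90.9 and 80.5 (3.60 ± 0.64, adjusted p = 0.000845). At the other 7 the log2 fold change ran from 1.502 at +3785 bp, where TMM gave -0.12, to 4.32 at -1078 bp. The remaining 5 were at +6284, +22452, +23552, +33090 and +60092 bp.

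Oscar encodes the osteoclast-associated receptor, a collagen-binding costimulatory receptor, and Calcr encodes the calcitonin receptor, a late osteoclast marker through which calcitonin halts resorption. Of the 4 Oscar peaks, 3 rose, and none passed with TMM. The promoter peak at -25 bp went from 2.64 and 0 to 48.9 and 27.2 tags per 10 M (4.30 ± 0.91, edgeR adjusted p = 0.00202), and the peak at +45294 bp from 3.52 and 0 to 36.2 and 35.2 (3.82 ± 0.85, adjusted p = 0.00263). The strongest Oscar peak, at +1954 bp, rested on uneven Day0 libraries, with 0 and 9 tags, and passed narrowly (2.51 ± 1.01, adjusted p = 0.0435). Calcr had 1 peak in all 15 tables. It lies in an intron at +11176 bp, held 0 tags in both Day0 libraries, and held 145 and 82 tags at Day4 (142 and 93.0 tags per 10 M). The rise was at least 62.9-fold against a floor of 3 tags over the Day0 group (edgeR adjusted p = 7.49e-05), and it was called with all 3 of library totals, TMM and DESeq2.

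**Figure D2:**
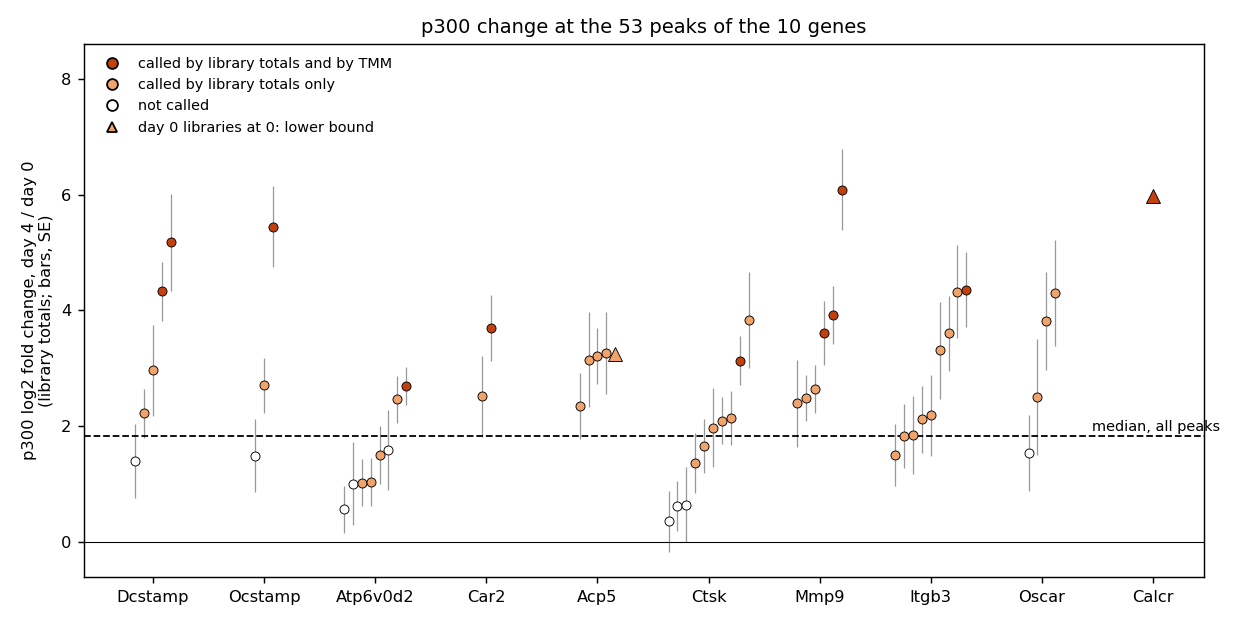
log2 fold change of p300 from Day0 to Day4 at the 53 peaks of the 10 genes, in order of size within each gene, scaled to library totals, with bars for the SE. Triangles are lower bounds where both Day0 libraries held 0 tags (Acp5 and Calcr). The dashed line is the median of all 20143 peaks (1.84). Dark symbols (11, the Calcr triangle among them) stayed called with TMM scaling, pale symbols were called by library totals alone, and open points (9) were not called.

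Other genes of the resorption machinery were read in the same way. A list of 20 further genes covered the same processes. Among them were Tcirg1, Clcn7 and Ostm1 of acid secretion, Src and Itgav of the attachment ring, and Cd9, Cd47 and Cd44 of fusion. The list had 114 p300 peaks at 19 of the genes (Ostm1 had none). Of these peaks 78 were called higher, at 16 genes, and 0 lower (68.4%, against the 62.5% of all peaks). Their median log2 fold change was 2.09. With TMM 19 were called, 15 higher and 4 lower. At Src, the kinase needed for the ruffled border, 10 of 10 peaks rose, and at Itgav, the partner of integrin β3, 11 of 13 did. With TMM 3 peaks were called at Src and 3 at Itgav. Other genes of the list went less far by library totals: 3 of 8 peaks rose at Sirpa and 1 of 3 at Tln1. With TMM 3 peaks at Sirpa and 1 at Fcer1g were called, and these were the 4 lower calls. None was called higher at Fcer1g (3 peaks), Trem2 (2) or Adam8 (1).

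The member peaks lay mostly away from promoters, and 13 of the 53 (24.5%) were within 2 kb of a TSS, against 20.7% of all p300 peaks of the experiment. An AP-1 match was found in 15 member peaks (28.3%, against 36.7% of the 20125 peaks on reference chromosomes), a PU.1 core in 16 (30.2% against 38.2%), an NFAT core in 17 (32.1% against 24.1%), an M-box in 9 (16.98% against 15.3%) and the κB pattern in 4 (7.55% against 2.69%). These counts were made in 200 bp around the peak centre on both strands. Of the peaks printed above, the Calcr peak holds 3 NFAT cores and none of the other 4 motifs, and the Mmp9 peak holds 2 AP-1 sites beside the κB match. A match is a description of the letters only.

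Many of the sites that carried p300 at Day4 also had macrophage peaks of the NCoR complex. Within 500 bp of the 53 member peaks, 35 had an NCoR peak of the BMDM experiments (66.0%, against 73.6% of all p300 peaks), 34 an HDAC3 peak (64.2% against 71.7%), 24 a PGC1β peak (45.3% against 59.6%) and 37 a BMDM p300 peak (69.8% against 78.2%). All of NCoR, HDAC3 and PGC1β were found at 21 member peaks (39.6% against 54.8%). None of NCoR, HDAC3, PGC1β and BMDM p300 was found at 14 (26.4% against 16.5%), the Calcr peak among them. The members thus had smaller shares near each of these factors than the peaks as a whole, and no test of this difference was made.

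ERK1 showed no called change at these loci between Day0 and Day4. None of the 22 ERK1 peaks of 8 genes (Calcr and Car2 had none) passed the edgeR test, where 2.35% of all 14957 did; 4 had an unadjusted p under 0.05, and TMM and DESeq2 also called 0. The median log2 fold change was 0.67 over the members and 1.00 over all peaks, and with TMM it was -0.33 and 0.04. At the Atp6v0d2 intron ERK1 held 27.5 and 16.8 tags per 10 M at Day0 and 57.6 and 57.3 at Day4, without overlap (1.36 ± 0.57, adjusted p = 0.120). At Acp5 +520 it held 12.1 and 6.30 and then 26.4 and 28.7 (1.56 ± 0.72, adjusted p = 0.144). The Day4 libraries were far apart at other sites, as at Mmp9 -5137, with 60.3 and 37.8 at Day0 and 126 and 37.0 at Day4. The Day4 library titled replicate 2 is described in the labels as replicate 3 with another date than its partner. In the list of 20 further genes, 2 of 70 ERK1 peaks were called higher.

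In BMDMs, KLA moved p300 in opposite directions at different members. Of 60 p300 peaks at 9 genes (Calcr had none), 16 rose and 15 fell. By the same rule 54.9% of all 67998 peaks were called, 28597 higher and 8747 lower. The median log2 fold change was 0.10 over the members and 0.65 over all peaks. With TMM (median over all peaks 0.14) 15 member peaks rose and 23 fell, against 22267 and 16245 of all peaks. Most of the falling peaks belonged to Atp6v0d2, where 11 of 15 fell and 1 rose. All 7 Car2 peaks rose. These 2 directions held with TMM, with 12 Atp6v0d2 peaks falling and 7 Car2 peaks rising.

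At the strongest Atp6v0d2 peak, at +24339 bp, p300 fell from 327 and 262 tags per 10 M with Veh to 74.2 and 65.4 with KLA (-2.08 ± 0.17 on the log2 scale, edgeR adjusted p = 4.59e-08). At +27804 bp it fell from 309 and 283 to 33.8 and 42.7 (-2.95 ± 0.18, adjusted p = 1.72e-09). The steepest fall was downstream of the gene, at +49561 bp, from 79.6 and 72.3 to 8.18 and 0.540 (-4.07 ± 0.51, adjusted p = 4.20e-06). The exception was an upstream peak at -6615 bp, where p300 rose from 6.27 and 3.29 to 33.8 and 45.4 (3.02 ± 0.48, adjusted p = 5.49e-05). The groups did not overlap at any of these.

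At Car2 -5713 p300 rose from 23.8 and 22.3 to 83.9 and 87.0 tags per 10 M (1.88 ± 0.26, edgeR adjusted p = 1.52e-05). This is the site that also gained p300 from Day0 to Day4. At Car2 -4687 it rose from 10.03 and 3.94 to 60.4 and 58.4 (3.06 ± 0.41, adjusted p = 9.86e-06), and over the 7 peaks the log2 fold change ran from 1.82 to 3.72.

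Among the other genes, Itgb3 lost p300 at 3 of 10 peaks, most clearly at +3782 bp, from 105 and 103 to 19.4 and 33.5 tags per 10 M (-1.98 ± 0.27, edgeR adjusted p = 1.19e-05), and gained it at 1. Mmp9 gained p300 at 2 of 6 peaks, as at -6994 bp, from 25.7 and 20.4 to 67.5 and 83.8 (1.71 ± 0.29, adjusted p = 8.24e-05). Ocstamp gained it at 2 of 6 and lost it at its promoter (-18 bp), where the level fell from 15.04 and 13.1 to 6.14 and 4.32 (-1.41 ± 0.53, adjusted p = 0.0285). Dcstamp gained it at 2 of 6 peaks and Ctsk at 1 of 6, and none was called at Acp5 (2 peaks) or Oscar (2). At the strongest Dcstamp peak p300 stood at 199 and 139 with Veh and 239 and 239 with KLA, a change of less than 2-fold (0.50 ± 0.17, adjusted p = 0.0169).

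**Figure D3:**
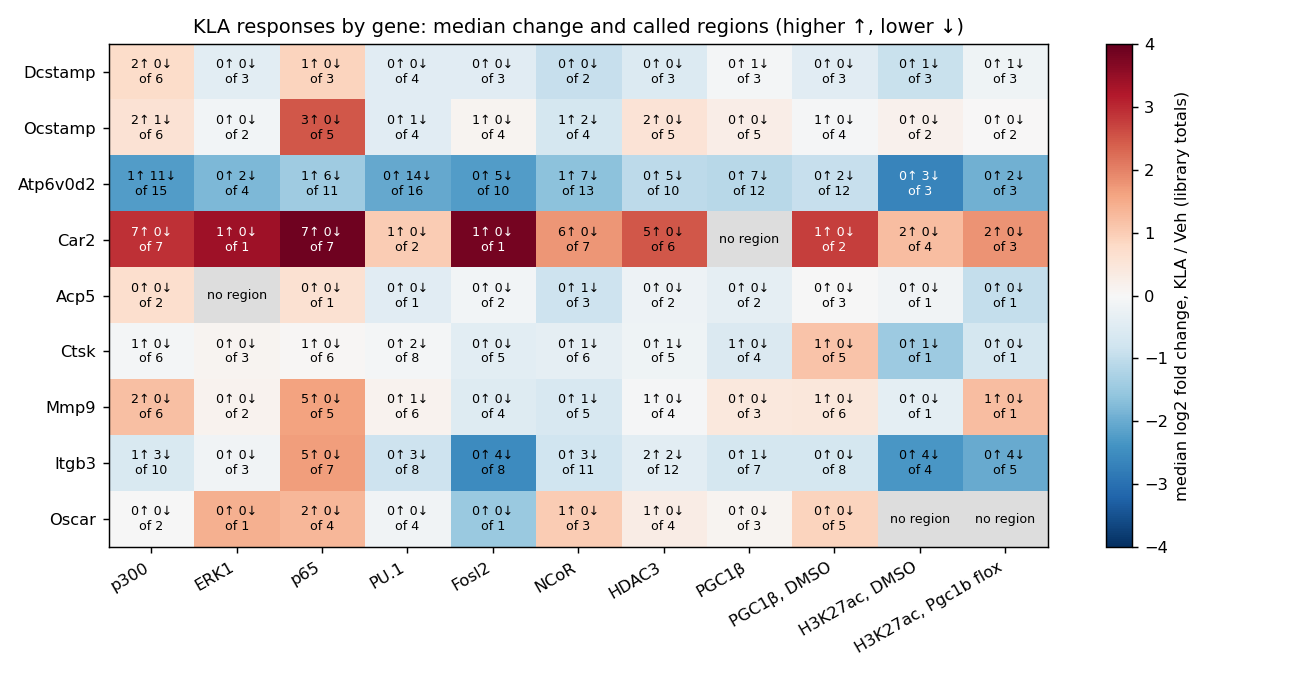
Responses to KLA at 9 of the 10 genes (Calcr had no region in these tables), by factor or mark. H3K27ac of the WT and NKO experiment is not drawn. Colour is the median log2 fold change of KLA against Veh over the regions of a gene, scaled to library totals, and the text in each cell counts the regions called higher and lower of those tested. Atp6v0d2 is blue in every factor column with a region, with 11 of 15 p300 peaks lower, and Car2 is red, with 7 of 7 p300 peaks higher.

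At Atp6v0d2 and Car2 the NCoR complex changed in the same directions as p300. NCoR was called at 24 of 54 member peaks, 9 higher and 15 lower. By the same rule 40.1% of all 55045 peaks were called, 12866 higher and 9207 lower. The median log2 fold change was -0.64 over the members and 0.10 over all peaks. NCoR fell at 7 of 13 Atp6v0d2 peaks and rose at 1. At the Atp6v0d2 promoter (-23 bp) NCoR went from 165 and 182 tags per 10 M to 50.2 and 46.3 (-1.85 ± 0.23, edgeR adjusted p = 0.000257), and at the strongest peak (-19842 bp) from 249 and 335 to 77.8 and 82.3 (-1.86 ± 0.22, adjusted p = 0.000170). It rose at 6 of 7 Car2 peaks, as at -5738 bp, from 17.9 and 17.7 to 59.1 and 66.4 (1.81 ± 0.37, adjusted p = 0.00297). The strongest Car2 site of NCoR, at +1533 bp, held 70.5 and 78.9 with Veh and 84.2 and 65.7 with KLA, and the groups overlapped. NCoR also fell at the Acp5 promoter (+553 bp, 59.7 and 38.8 to 13.8 and 12.5), and at Ocstamp -4811 (298 and 307 to 151 and 127). The most heavily occupied member site, Mmp9 -5155, fell by less than 2-fold, from 675 and 782 to 387 and 393 (-0.90 ± 0.16, adjusted p = 0.00135). Without KLA replicate 1 or 2 the count called was 13 or 11.

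HDAC3 was called at 19 of 51 member peaks, 11 higher and 8 lower, and with TMM 9 were higher and 14 lower. By library totals 38.8% of all 48502 peaks were called, 13360 higher and 5463 lower. HDAC3 fell at 5 of 10 Atp6v0d2 peaks and rose at 5 of 6 Car2 peaks, directions that TMM kept. At Atp6v0d2 -19847 it went from 254 and 222 to 72.7 and 64.98 tags per 10 M (-1.78 ± 0.37, edgeR adjusted p = 1.57e-05). At Car2 -1253 it went from 1.45 and 0.553 to 30.5 and 38.6 (5.03 ± 0.87, adjusted p = 1.18e-07). The 2 KLA libraries were unequal in depth (17.1 and 5.69 M tags) and in their share of tags in peaks (31.2 and 46.5%), and differed at strong sites, as at Mmp9 -5120, with 614 and 515 with Veh and 381 and 749.9 with KLA. Without Veh replicate 1 or 2 the count called was 8 or 9.

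PGC1β fell at 9 of 39 member peaks and rose at 1, and 7 of the falling peaks were among the 12 of Atp6v0d2. Over all 45675 peaks PGC1β was called at 22.8%, 2899 lower and 7507 higher. At Atp6v0d2 +27770 it went from 109.9 and 98.6 to 27.3 and 20.02 tags per 10 M (-2.17 ± 0.33, edgeR adjusted p = 0.000133), and at Itgb3 +3775 from 44.7 and 46.5 to 7.65 and 11.4 (-2.20 ± 0.43, adjusted p = 0.00119). The peak that rose was Ctsk -20066, from 17.6 and 19.5 to 62.3 and 43.5 (1.48 ± 0.38, adjusted p = 0.00784). Car2 had no PGC1β peak in this table. Without Veh replicate 1 or 2 the count called was 4 each time.

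**Figure D4:**
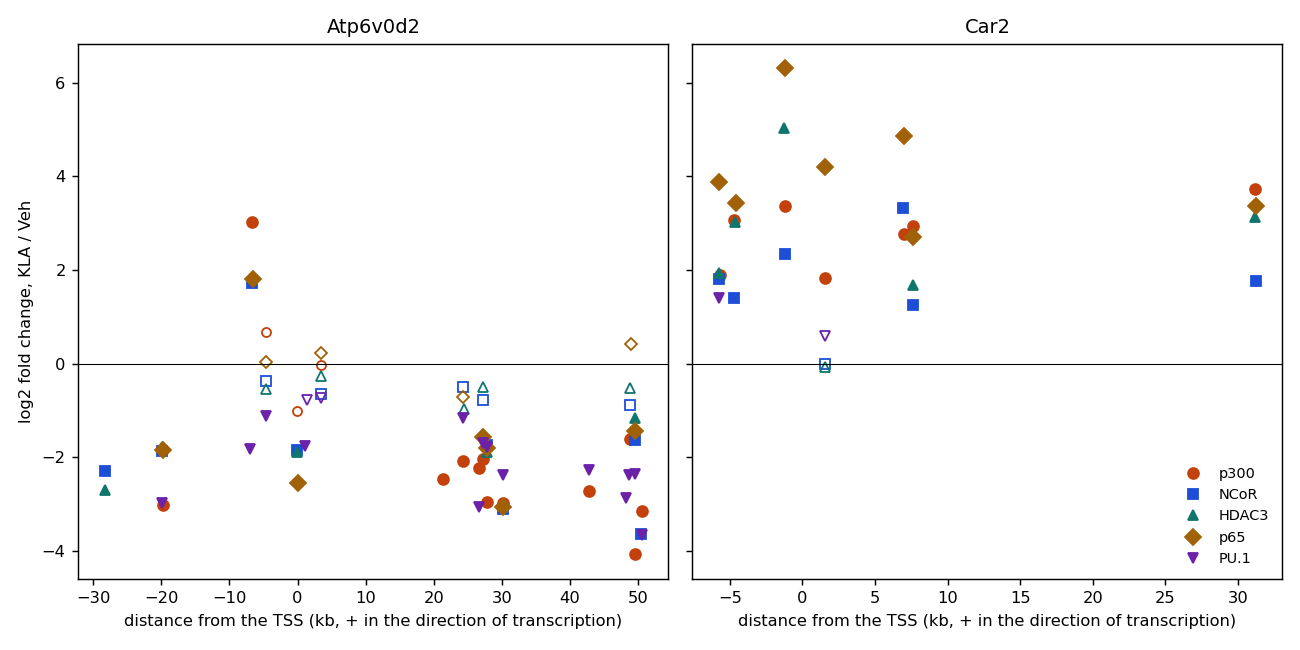
log2 fold change of KLA against Veh for p300, NCoR, HDAC3, p65 and PU.1 at each region of Atp6v0d2 (left) and Car2 (right), against the distance of the region from the TSS in kb. Filled symbols were called and open ones were not, and a region with 0 tags in both Veh libraries is drawn at its bound. Most Atp6v0d2 regions lie below 0 over about the whole locus, with p300 between -4.07 and 3.02, and most Car2 regions lie above 0.

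ERK1 changed at few member peaks in BMDMs. Of 19 member peaks, 2 fell and 1 rose (12.9% of all 27931 were called, 708 lower and 2884 higher). The falling ones were both at Atp6v0d2. At +27842 bp ERK1 went from 113 and 123 to 39.3 and 19.1 tags per 10 M (-2.00 ± 0.42, edgeR adjusted p = 0.0143). At Car2 -4701 it went from 0 and 3.47 to 25.8 and 17.7 (3.38 ± 0.99, adjusted p = 0.0444), a call that TMM did not keep, and with TMM 3 peaks fell, all at Atp6v0d2. Without KLA replicate 1 or 2 a single call was left.

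The NFκB subunit p65, which enters the nucleus upon TLR4 signalling, rose at 25 of 49 member peaks and fell at 6. By the same rule 62.4% of all 52629 peaks were called, 29981 higher and 2859 lower. The median log2 fold change was 1.21 over the members and 1.46 over all peaks. With TMM, which moved the median of the members to -0.01, 8 member peaks rose and 13 fell, against 14540 and 11205 of all peaks. The 6 that fell were all at Atp6v0d2, as at its promoter (+32 bp), from 66.5 and 73.6 to 9.35 and 14.4 tags per 10 M (-2.56 ± 0.40, edgeR adjusted p = 0.000277). All 7 Car2 peaks rose, and 5 of them did with TMM. At Car2 -4601 p65 went from 16.6 and 12.1 to 155 and 157 (3.43 ± 0.31, adjusted p = 6.83e-06), and at Car2 +6960, where both Veh libraries held 0 tags, it became at least 29.2-fold higher against 3 tags over the Veh group. At Ocstamp -5162, the site of the p300 gain at Day4, p65 rose from 16.6 and 21.4 to 119 and 95.8 (2.49 ± 0.34, adjusted p = 9.60e-05), also with TMM. All 5 Mmp9 peaks rose by library totals and none with TMM. Without KLA replicate 1 or 2 the count called was 18 or 17.

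PU.1, the factor that marks macrophage enhancers, fell at 21 of 53 member peaks and rose at 1, and with TMM 14 fell and 5 rose. By library totals 26.3% of all 50690 PU.1 peaks were called, 2296 higher and 11020 lower. The median log2 fold change was -0.57 over the members and -0.41 over all peaks. The share of PU.1 tags in peaks was 51.6 to 52.8% with Veh and 41.5 to 41.7% with KLA. Of the 16 Atp6v0d2 peaks 14 fell, and 12 with TMM. At Atp6v0d2 +27796 PU.1 went from 319 and 332 to 89.6 and 98.8 tags per 10 M (-1.78 ± 0.10, edgeR adjusted p = 3.09e-35). The peak that rose was Car2 -5739, from 45.5 and 39.2 to 106 and 119.8 (1.41 ± 0.16, adjusted p = 8.03e-14). Fosl2 fell at 9 of 38 peaks, 5 of them at Atp6v0d2 and 4 at Itgb3, and rose at 2. Over all 31283 peaks Fosl2 was called at 15.6%, 1310 lower and 3558 higher. At Atp6v0d2 +27803 it went from 206 and 198 to 32.6 and 29.2 (-2.71 ± 0.79, adjusted p = 0.00730), and at Car2 -5711 from 9.87 and 1.05 to 41.9 and 106 (3.82 ± 1.03, adjusted p = 0.00300). The Fosl2 counts were unstable: KLA replicate 1 held 4.30 M tags with 16.4% of them in peaks, against 32.3% in KLA replicate 2, and without Veh replicate 1 or 2 no member peak was called, whereas without KLA replicate 2 the count was 23.

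The macrophage responses were also read at the sites of the p300 peaks of osteoclast differentiation. Within 500 bp of the 53 peaks, NCoR was called lower with KLA at 10 of 35 sites and higher at 2, where, over all p300 peaks of the osteoclast table that lie this close to a tested NCoR region, 19.6% were called lower and 9.31% higher. HDAC3 was lower at 8 of 34 and higher at 4 (13.4% and 11.2% over all such peaks), and PGC1β was lower at 5 of 24 and higher at 1 (5.81% and 14.4%). p300 rose at 6 of 37 sites and fell at 6 (26.8% and 10.7%). p65 rose at 14 of 35 and fell at 5 (49.3% and 3.59%), PU.1 fell at 12 of 29 and rose at 1 (15.03% and 2.88%), and Fosl2 fell at 7 of 33 and rose at 2 (2.81% and 5.23%). The lower sites of PGC1β were at Atp6v0d2, Dcstamp and Itgb3, and those of Fosl2 at Atp6v0d2 and Itgb3, with Atp6v0d2 holding the most of both. Neighbouring peaks can share a macrophage region, so the sites are not independent of each other.

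The response of p300 to differentiation was set against its response to KLA at shared sites, and the count that differed depended on the scaling. Of the 15443 peaks found within 200 bp of each other in both experiments, 36 belonged to the members. By library totals the difference of the 2 log2 changes was called at 29 of the 36, 28 in favour of Day4 and 1 of KLA. By the same edgeR interaction test 51.4% of all were called, 7570 in favour of Day4 and 367 of KLA. The median difference was 2.43 over the members and 1.42 over all peaks. With TMM 16 of the 36 were called, 14 for Day4 and 2 for KLA, and with DESeq2 15. The share of tags inside peaks was 21.99 to 23.7% with Veh and 35.3 to 35.5% with KLA, against the lower shares at Day0 and Day4 given above, and the experiments were separate, so a general difference between them and one at these loci cannot be told apart by library totals alone. The most different member was Atp6v0d2 +49521, where p300 went from 16.7 and 4.26 to 26.4 and 46.5 tags per 10 M with differentiation, a change not itself called, and from 79.6 and 72.3 to 8.18 and 0.540 with KLA (difference 5.60 ± 0.87 on the log2 scale, edgeR adjusted p = 7.49e-05). At Itgb3 +31075 p300 rose with differentiation, as given above, and held 50.8 and 54.5 with Veh and 33.8 and 28.6 with KLA (difference 5.17 ± 0.66, adjusted p = 1.32e-05). The peak in favour of KLA was Ctsk -20034 in an intron of a neighbouring gene, with 28.1 and 25.5 at Day0, 34.2 and 35.2 at Day4, 45.1 and 40.1 with Veh and 121 and 124 with KLA (difference -1.17 ± 0.48, adjusted p = 0.0460). For ERK1, 1 of 12 shared member peaks differed (6.86% of all 9692), at Atp6v0d2 +24380 (difference 2.78 ± 0.80, adjusted p = 0.0314). TMM and DESeq2 called 0 of the 12, and the call was lost without Day0 replicate 1, without Day4 replicate 1 and without any one of the 4 BMDM libraries.

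Inhibition of ERK gave few changes in PGC1β at these genes. In that experiment KLA with DMSO raised PGC1β at 4 of 48 member peaks and lowered it at 2, and with TMM it raised 3 and lowered 4. By library totals 17.6% of all 53474 peaks were called, 8761 higher and 659 lower. The member peaks called by library totals were Car2 -5741, Ctsk -20086, Mmp9 +4677 and Ocstamp -7676 on the rising side and Atp6v0d2 +27760 and +49571 on the falling side. At Car2 -5741 PGC1β went from 6.50 and 0 to 47.4 and 38.7 tags per 10 M (3.41 ± 0.84, edgeR adjusted p = 0.00557). The count was 2 without DMSO Veh replicate 1, and 3 without DMSO Veh replicate 2 or DMSO KLA replicate 2. ERKi with KLA against DMSO with KLA changed 2 of the 48 (0.286% of all were called). At Atp6v0d2 +24331 PGC1β fell from 75.0 and 41.7 to 4.69 and 3.88 (-3.71 ± 0.65, adjusted p = 0.0184), and at the Mmp9 promoter (-573 bp) it rose from 11.8 and 4.47 to 81.3 and 73.7 (3.28 ± 0.70, adjusted p = 0.0388). Both stayed called with TMM. The count was 0 without either replicate 1 of the compared groups and 1 without either replicate 2.

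NCoR with ERKi and KLA was lower than with KLA at 26 of 59 member peaks and higher at 2. By the same rule 49.2% of all 57573 peaks were called, 27959 lower and 365 higher. The median log2 fold change was -1.17 over the members and -1.20 over all peaks. The ERKi libraries carry a later date than the KLA libraries, which are the same as in the NCoR comparison above, had 14.97 to 15.8% of their tags in peaks against 33.3 to 34.2%, and have no counterpart labelled as given DMSO, so ERKi and the library date cannot be told apart. With TMM 8 were called, 3 higher and 5 lower, and with DESeq2 10, and the count was 17 or 16 without KLA replicate 1 or 2. The member sites past TMM included Atp6v0d2 -4584, from 91.5 and 85.1 to 0 and 3.45 tags per 10 M (edgeR adjusted p = 6.57e-05), and, in the opposite direction, the Acp5 promoter (+548 bp), from 13.8 and 12.5 to 55.8 and 53.4 (2.05 ± 0.42, adjusted p = 0.00161).

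H3K27ac fell with KLA at Atp6v0d2 and rose at Car2 in the RGFP966 and PGC1b experiments. No such change was called in the WT libraries of the NKO experiment, given below. In the DMSO libraries of the RGFP966 experiment 11 of the 19 tested member windows of 1000 bp changed, 2 higher and 9 lower. By the same rule 34.8% of all 25045 windows were called, 1686 higher and 7038 lower. The median log2 fold change was -0.88 over the members and -0.42 over all windows. The share of tags in windows was 30.6 to 31.5% with DMSO and Veh and 22.9 to 27.9% with DMSO and KLA. Of the 23 member windows 4 were too low to test, all at Itgb3. The strongest, in the Atp6v0d2 intron at +27776 bp, fell from 718 and 674 to 141 and 142 tags per 10 M (-2.30 ± 0.20, edgeR adjusted p = 1.38e-27), and Car2 -5750 rose from 4.98 and 2.62 to 35.6 and 26.1 (2.995 ± 0.49, adjusted p = 5.03e-09). Both directions held with TMM. In the PGC1b flox/flox libraries, a separate experiment over the same windows, 3 of 19 tested windows rose and 7 fell with KLA. Of all 25197 windows 30.8% were called, 1315 higher and 6450 lower. The share of tags in windows was 35.8 to 35.9% with Veh and 29.9 to 30.1% with KLA. Atp6v0d2 +27776 fell in these libraries from 474 and 511 to 138 and 122 (-1.92 ± 0.10, edgeR adjusted p = 9.77e-69).

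The HDAC3 inhibitor gave higher H3K27ac at 9 of the 19 windows when RGFP966 with KLA was compared with DMSO with KLA, and lower at none. By the same rule 36.5% of all windows were called, 6749 higher and 2388 lower. The median log2 fold change was 1.02 over the members and 0.39 over all windows. With TMM 6 of the member windows were called. At Mmp9 -5125 the level rose from 23.3 and 12.6 to 81.0 and 71.8 tags per 10 M (2.05 ± 0.30, edgeR adjusted p = 2.07e-10). At Itgb3 +39667 it rose from 12.95 and 15.1 to 52.7 and 50.8 (1.88 ± 0.33, adjusted p = 8.07e-08), where KLA with DMSO had started from 41.5 and 53.2 with Veh. All 3 Atp6v0d2 windows rose, as at -19848 bp from 23.96 and 26.9 to 84.9 and 62.3 (1.54 ± 0.28, adjusted p = 2.47e-07), against 160.3 and 155 with DMSO and Veh. The strongest of the 3, at +27776 bp, was called by library totals alone (TMM 0.68, DESeq2 0.71). No window at Car2, Ctsk, Dcstamp or Acp5 was called.

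LysMCre in PGC1b flox/flox BMDMs came with no called change of the members' H3K27ac in Veh and with a few in KLA. In Veh, 0 of 19 windows differed between PGC1b flox/flox, LysMCre and PGC1b flox/flox BMDMs (edgeR, 0.397% of all were called; 4 had an unadjusted p under 0.05, and TMM and DESeq2 called 0). In KLA 2 were lower and 1 higher with LysMCre, whereas with TMM 2 were higher and 0 lower. Of all windows 7.52% were called by library totals, 1717 lower and 177 higher. The KLA response itself differed between the genotypes at 4 of 19 windows (interaction, 5.37% of all were called). At Atp6v0d2 -19848 H3K27ac went from 44.9 and 69.3 with Veh to 38.0 and 47.8 with KLA without LysMCre, and from 61.1 and 68.3 to 21.7 and 18.9 with it. At Itgb3 +39667 it went from 44.9 and 41.6 to 11.02 and 8.68 without LysMCre and from 34.3 and 32.5 to 19.5 and 22.1 with it. With LysMCre the fall was larger at the first site and smaller at the second. With TMM these 2 calls were kept and with DESeq2 none of the 4, and leaving out single libraries, any but the flox/flox KLA replicate 1, flox/flox Veh replicate 2 or LysMCre KLA replicate 2, left 2.

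**Figure D5:**
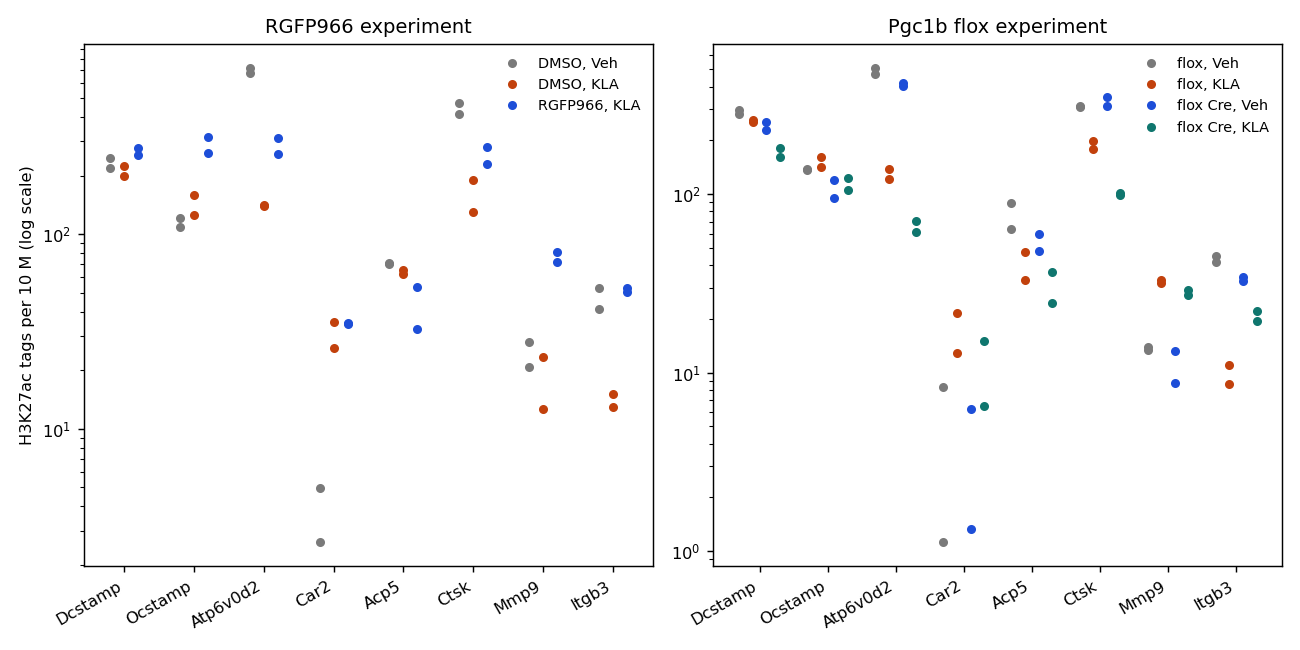
H3K27ac tags per 10 M (log axis) in each library at the strongest H3K27ac window of each gene with one, in the RGFP966 experiment (left) and the PGC1b experiment (right). Points are libraries, 2 per group. Atp6v0d2 has the highest levels with Veh and falls with KLA in both experiments, and Car2 has the lowest levels with Veh and rises with KLA.

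The table of WT and NKO BMDMs held 15 member regions, of which 11 were tested, at 5 genes. Its member regions were 212 to 426 bp wide, against 1000 bp in the experiments above, and all its regions held 5.55 to 7.18% of the tags. The Car2 region was too low to test. KLA against Veh in WT called 0 of the 11 (10.2% of all 18504 were called). Of the 11, 2 had an unadjusted p under 0.05, and TMM and DESeq2 called 0. At Atp6v0d2 +27182 H3K27ac held 30.3 and 33.6 tags per 10 M with Veh and 20.1 and 24.8 with KLA (-0.51 ± 0.35, edgeR adjusted p = 0.362). At Atp6v0d2 +30221 it held 20.2 and 21.9 and then 6.92 and 6.89 (-1.60 ± 0.63, adjusted p = 0.0770). NKO against WT called 1 in Veh (1% of all were called), Dcstamp -8278, at which H3K27ac stood at 8.83 and 8.66 tags per 10 M in WT and 35.4 and 35.4 in NKO (2.01 ± 0.47, edgeR adjusted p = 0.0152). This is the upstream site that gained p300 at Day4. The call was lost with TMM, with DESeq2 and without any one of the 4 Veh libraries. In KLA 0 of 11 differed (0.789% of all; 3 with an unadjusted p under 0.05, TMM and DESeq2 0), and the KLA response differed at 0 (0.697% of all; 1 with an unadjusted p under 0.05, TMM and DESeq2 0).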

How the data were processed

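ChIP-seq was carried out on 100 samples in 50 groups, of which 70 libraries in 35 groups were analysed here and the 30 input samples were not. Per the submitters' processing notes and the methods, the authors aligned single-end reads to mm10 with Bowtie2, called peaks with HOMER, kept peaks reproducible between replicates and annotated them to the nearest gene, with versions not given in the sources used here. The deposited values are raw tag counts per region, with at most 3 tags kept per position by the authors' counting and no normalization.

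Counts were scaled to the library totals of the table headers (4.30 to 21.5 M tags), and levels are given per 10 M. Regions with fewer than 4 tags (16 for H3K27ac) in every library were not tested. All regions of a table were fitted with edgeR 4.0.16 (quasi-likelihood test, R 4.3.3) with Benjamini-Hochberg adjustment over the whole table. The SE is the log2 fold change divided by the square root of F. Floors (3 tags) cover counting error only. Tables were joined and drawn with Python 3.11.15, pandas 2.3.3 and matplotlib 3.10.9, regions of other tables were matched within 500 bp, and peaks of both p300 or ERK1 experiments within 200 bp. The code was tested on simulated data. The alternatives were TMM scaling, no filter, a replicate block, the DESeq2 1.42.0 Wald test and leaving out each library.

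Same-numbered libraries did not deviate together (31 correlations, -0.027 to 0.088), so the main tests were unpaired, and no libraries were identical. The rule for naming took all 10 genes, the region of most tags and the region nearest the TSS for each gene and table, and every called region at Day4. All called Day4 regions are given, but outside the p300 Day4 table only some of the regions the rule took are, chosen after their values were seen, as were regions outside the rule, and the rest are given as counts. The genes and the list of 20 further genes were chosen with earlier results of these data known.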

Additional observations from a re-analysis of the deposited data

Results flagged for a closer look

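The KLA response of H3K27ac differed between PGC1b flox/flox, LysMCre and PGC1b flox/flox BMDMs at 4 member windows, by the edgeR test of the interaction itself. The log2 response was lower with LysMCre by -1.27 at Atp6v0d2 -19848 (adjusted p = 0.00540), by -1.10 at Dcstamp -8292 (adjusted p = 3.53e-05) and by -1.01 at Ctsk +12737 (adjusted p = 2.90e-08). It was higher with LysMCre by 1.45 at Itgb3 +39667 (adjusted p = 0.0257). With TMM the Atp6v0d2 and Itgb3 windows stayed called, and DESeq2 called none of the 4. The share of tags in the windows was 29.9 to 30.1% in the flox/flox KLA libraries and 21.97 to 22.4% in the LysMCre KLA libraries, and its part in the result was not tested.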

How the results depend on the processing

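With TMM the member regions called were 11 for p300 at Day4, 8 for NCoR with ERKi, 17 for Fosl2, 0 for NKO against WT in Veh, 2 for the PGC1b interaction, and 16 and 0 for the p300 and ERK1 differences between Day4 and KLA. With DESeq2 they were 4 for p300 at Day4, 10 for NCoR with ERKi, 0 for NKO against WT in Veh, 1 for LysMCre in KLA, 0 for the PGC1b interaction, and 15 and 0 for the p300 and ERK1 differences. With the replicate block they were 35 for p300 at Day4, 1 for PGC1β with ERKi and 0 for Fosl2. The causes were not tested. Among called member peaks signs turned with TMM or DESeq2 at p300 Day4 peaks Atp6v0d2 +27065 (TMM -0.59, DESeq2 -0.44), +24330 (-0.59, -0.50) and -4615 (-0.11, -0.011), Ctsk -301 (-0.25, -0.15) and Itgb3 +3785 (TMM -0.12), for p65 at Mmp9 -5120 (TMM -0.011), and for NCoR with ERKi at Car2 +7606 (TMM 0.032, DESeq2 0.045) and Itgb3 +31131 (DESeq2 0.0074).

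Leaving out single libraries gave 20 to 47 called for p300 at Day4, 1 to 3 for ERK1 with KLA, 11 to 30 for NCoR, 8 to 23 for HDAC3, 4 to 15 for PGC1β, 2 to 5 for PGC1β with DMSO, 0 to 1 for PGC1β with ERKi, 16 to 30 for NCoR with ERKi, 17 to 35 for p65, 0 to 23 for Fosl2, 0 for NKO in Veh, 2 to 4 for the PGC1b interaction and 0 to 1 for the ERK1 difference. Each group had 2 libraries, which limits every estimate of spread.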
